A study of Mus musculus with 20 samples.

Results

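The ligands BAFF and APRIL, the RANK ligand and their receptors were followed across the ileum of 20 mice. The set holds 9 genes, taken by name from the gene table as the TNF superfamily ligands and receptors of B cell help. They are the ligands Tnfsf13b (BAFF), Tnfsf13 (APRIL), Tnfsf11 (RANK ligand) and Tnfsf8 (CD30 ligand), the receptors Tnfrsf13b (TACI), Tnfrsf13c (BAFF receptor), Tnfrsf17 (BCMA) and Tnfrsf11a (RANK), and the soluble decoy Tnfrsf11b (osteoprotegerin). The table lists 35204 genes, of which 16306 were tested, and all 9 members were among those tested.

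BAFF and APRIL are made largely by myeloid and stromal cells, and epithelial cells contribute as well. They keep B cells and plasma cells alive through TACI, the BAFF receptor and BCMA, and in the gut they help switch B cells to IgA. RANK ligand from stromal and lymphoid cells binds RANK on the epithelium, where it drives formation of M cells, the antigen-sampling cells over lymphoid follicles, and osteoprotegerin captures the ligand before it can do so.

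Female C57BL/6 mice, labelled C57Bl6, were 7 weeks old when the diets began, and ileal RNA was taken after 3 weeks on a control diet (CD) or a tryptophan-deficient diet (TDD). Mice were either specific pathogen-free without antibiotics (SPF) or given a cocktail of ampicillin, vancomycin, gentamycin, metronidazole and neomycin (ABX-treated), which gives the groups CD, TDD, CD+ABX and TDD+ABX with 5 mice each and no allele or transgene named for any of them, and all 20 mice were used. Each library came from a short piece of whole intestinal wall cut close to the cecum, and whether Peyer's patches, the lymphoid follicles of the gut wall, were removed from it is not given in the sources used here. Nor is it given whether mice of a group shared cages, so p-values measure the spread between these mice.

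Libraries held 36676963 to 58662617 estimated counts. Levels are given as CPM, the count of a gene relative to the size of its library after TMM scaling, and a gene passed the test at a Benjamini-Hochberg adjusted p (q) under 0.05 over all genes tested and was called when it also changed by at least 2-fold. The 8 markers of ileal epithelium summed to 8650 to 21900 CPM in every mouse, and 3 of them rose with antibiotics on either diet (edgeR). Among them, however, the bile acid genes that mark the terminal ileum were low in SPF mice, with Fabp6 (the ileal bile acid binding protein) at 0.238 to 3.91 CPM in the 10 SPF mice and 2.65 to 144 CPM in the 10 ABX-treated mice. The part that the position of the tissue along the gut played in the results was not tested.

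The levels of B cell markers differed between mice of the same group. The summed level of 10 B cell markers was 12.5, 99.7, 143, 9.47 and 9.39 CPM in CD mice 1 to 5 and 7.88, 148, 104, 221 and 177 CPM in TDD mice. It was 5.73, 13, 9.11, 8.39 and 12.8 CPM in CD+ABX mice and 18.6, 36.4, 10.1, 6.49 and 153 CPM in TDD+ABX mice. The widest step in these sums, from 36.4 to 99.7 CPM, left 7 mice above it, namely 2 of 5 CD mice, 4 of 5 TDD mice, 0 of 5 CD+ABX mice and 1 of 5 TDD+ABX mice. None of the 10 markers passed the test in any comparison (edgeR's quasi-likelihood test), although at an unadjusted p under 0.05 the number was 0 for the diet in SPF mice, 7 for the diet in ABX-treated mice, 10 for antibiotics on CD and 1 for antibiotics on TDD. Of the 16306 genes tested, 4644, 2415, 4352 and 4985 reached this p in the same order. In bulk tissue, fewer cells of a type and less RNA per cell cannot be told apart, which holds for every result that follows.

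The promoters of RANK, BAFF and BCMA are shown because these genes passed the test in at least 1 comparison and their windows hold matches of the motifs searched. The window of TACI, which passed as well, holds 3 kappaB matches and is not printed. RefSeq windows of the 250 bases before each transcription start (GRCm38.p6) were found for 8 of 9 members, and not for Tnfrsf11b, and Tnfsf13b had 2 windows. They were searched on both strands for 3 motifs, chosen with the levels of these genes known: the kappaB motif of NF-kappaB, the factor that these receptors activate, written GGG and CC with 5 free bases between them, the PU box GAGGAA, and the core of the interferon response element, written GAAA and GAAA with 2 free bases between them. The windows below are those of RANK, of BAFF (the second, which ends downstream of the first) and of BCMA, written 5′ to 3′ in the direction of the gene with matches in capitals.
Tnfrsf11a, chr1:105780473-105780722, plus strand: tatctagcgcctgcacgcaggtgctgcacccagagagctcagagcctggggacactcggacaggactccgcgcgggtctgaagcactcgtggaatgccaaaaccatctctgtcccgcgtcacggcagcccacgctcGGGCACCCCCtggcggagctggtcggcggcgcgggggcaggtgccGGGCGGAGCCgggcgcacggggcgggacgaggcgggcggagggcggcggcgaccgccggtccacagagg
Tnfsf13b, chr8:10006383-10006632, plus strand: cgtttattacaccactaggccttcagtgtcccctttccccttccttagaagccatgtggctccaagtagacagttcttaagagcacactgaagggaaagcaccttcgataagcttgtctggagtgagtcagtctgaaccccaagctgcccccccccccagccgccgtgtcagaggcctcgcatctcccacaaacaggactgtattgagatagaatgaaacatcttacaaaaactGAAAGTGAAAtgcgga
Tnfrsf17, chr16:11313559-11313808, plus strand: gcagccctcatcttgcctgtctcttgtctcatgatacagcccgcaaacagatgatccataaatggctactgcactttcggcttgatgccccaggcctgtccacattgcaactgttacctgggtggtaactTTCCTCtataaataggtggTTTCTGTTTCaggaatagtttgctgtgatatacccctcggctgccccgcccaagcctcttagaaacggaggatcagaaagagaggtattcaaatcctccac
The RANK window holds 2 kappaB matches. The BAFF window holds 1 interferon response core that starts 16 bases before the transcription start, and its other window holds none of the motifs. The BCMA window holds 1 PU box and, downstream of it, 1 interferon response core. Matches of kappaB lay in the windows of 5 of the 8 genes, of the interferon response core in 2 and of the PU box in 1. Over all 32851 windows of this length, 45.8% hold a kappaB match, 23.3% a PU box and 2.98% an interferon response core. A match describes the letters only and does not show that a factor binds there.

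The members differed widely in level. Compared per transcript length, in TPM, RANK stood highest in CD mice with a mean of 14.7 TPM, followed by APRIL with 11.1 TPM and BAFF with 7.04 TPM. TACI reached 3.64 TPM, osteoprotegerin 1.88 TPM, the BAFF receptor 1.76 TPM and BCMA 1.59 TPM, and CD30 ligand (0.259 TPM) and RANK ligand (0.252 TPM) stood lowest. The ranges of neighbours in this order overlapped at every step except that from BCMA to CD30 ligand. In TDD mice, APRIL (12.6 TPM) stood above RANK (8.56 TPM) in 5 of 5 mice, and TACI (6.11 TPM) and the BAFF receptor (5.09 TPM) came next. In CD+ABX mice, the BAFF receptor had the lowest level of the receptors, at 0.299 TPM. These orders depend on the length used: with gene counts divided by the mean length of the transcripts, RANK was above APRIL in all 20 mice (16.4 and 12.2 TPM in TDD) and TACI above BAFF in the CD means (7.83 and 5.95 TPM).

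**Figure D1:**
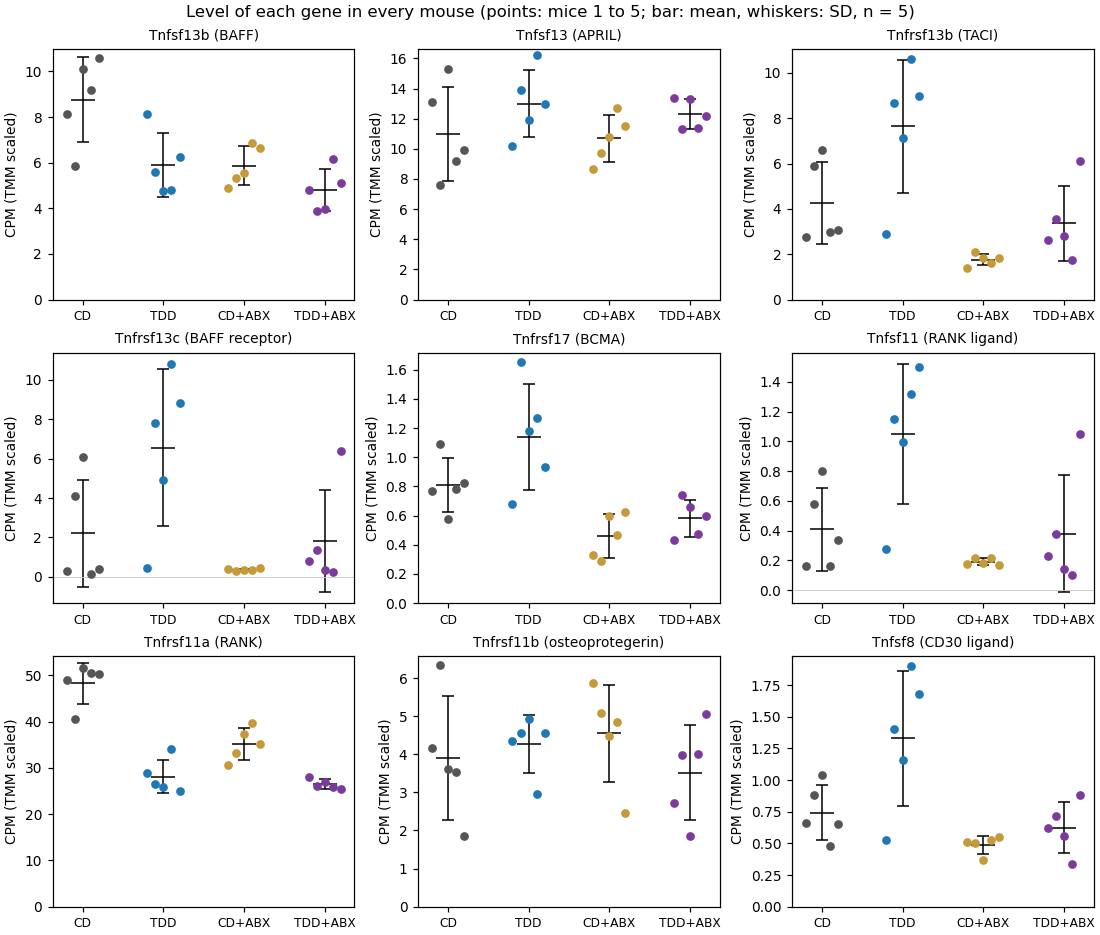
Each panel plots the CPM of a member (vertical axis, linear) in every mouse of the 4 groups (horizontal axis), with 1 point per mouse, a bar for the mean and whiskers for the SD of 5 mice. RANK in all CD mice lies above all TDD mice, and the BAFF receptor lies near 0 in most mice and at 4.09 to 10.8 CPM in 7 of them.

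The diet comparison asks whether the lack of tryptophan alters the expression of these genes, without and with antibiotics. In SPF mice, RANK and BAFF passed with lower levels on TDD. No member passed with higher levels, although 7 of 9 had higher estimates. The 2 members that passed (edgeR's quasi-likelihood test) compare with 7.73% of all genes tested that passed with lower levels, and no member was called, where 1.84% of all genes were. In ABX-treated mice RANK alone passed, again lower on TDD, where 1.08% of all genes passed with lower levels and 0.331% were called. An unadjusted p under 0.05 (edgeR) was reached by 5 of 9 members without ABX and 3 of 9 with ABX. Of the 16306 genes tested, 4644 and 2415 reached it. DESeq2 and limma also called 0 members for the diet. The median log2 fold change of the members in SPF mice was 0.5, and with ABX 0.33, beside 0.01 and 0 over all genes.

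Tnfrsf11a, the receptor RANK (ENSMUSG00000026321.7, chromosome 1, 105780718 to 105847981, plus strand, GENCODE M21 on GRCm38), gave the clearest difference. It measured 49, 40.6, 51.5, 50.4 and 50.2 CPM in CD mice 1 to 5 and 28.9, 26.4, 25.9, 34.1 and 25.1 CPM in TDD mice. Every TDD mouse lay below every CD mouse, a separation that 9.58% of all genes tested showed. The CD mean of 48.3 ± 4.41 CPM stood against a TDD mean of 28.1 ± 3.63 CPM (SD, n = 5), which gave -0.79 as the log2 fold change (SE 0.08, q = 1.45e-05 by the edgeR test).

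With ABX, RANK measured 30.7, 33.1, 37.3, 39.6 and 35.1 CPM on CD and 28.1, 26.1, 26.9, 25.9 and 25.5 CPM on TDD. Here too the diets did not overlap, as in 4.78% of all genes tested. The means were 35.2 ± 3.46 and 26.5 ± 1.01 CPM (SD, n = 5), and their log2 fold change was -0.41 (SE 0.08, edgeR q = 0.0187). This result rested in part on 2 mice, since q was 0.0505 without CD+ABX mouse 3 and 0.0627 without CD+ABX mouse 4. The diet effect with ABX differed from that without by 0.38 on the log2 scale (SE 0.12, unadjusted p = 0.00492 and q = 0.288, edgeR's interaction term), and the difference did not pass.

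RANK was read mainly from its coding transcript Tnfrsf11a-201, which held 79.2% to 85.5% of its TPM in CD mice and 70.3% to 82.1% in TDD mice. That transcript measured 12.1 ± 0.955 TPM on CD and 6.65 ± 0.685 TPM on TDD (SD, n = 5), and 8.74 ± 0.934 and 6.8 ± 0.265 TPM on the same diets with ABX. The retained-intron transcript Tnfrsf11a-203 measured 2.23 ± 0.125 TPM on CD and 1.64 ± 0.424 TPM on TDD (SD, n = 5).

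Tnfsf13b, which encodes BAFF (ENSMUSG00000031497.9, chromosome 8, 10006467 to 10039072, plus strand), was the second member to fall. It measured 8.12, 5.86, 10.1, 9.17 and 10.6 CPM in CD mice and 8.13, 5.59, 4.76, 4.79 and 6.24 CPM in TDD mice. CD mice 1 and 2 and TDD mice 1 and 5 lay within the range of the other diet, and the means were 8.77 ± 1.88 and 5.9 ± 1.39 CPM (SD, n = 5). The log2 fold change was -0.57 (SE 0.18, q = 0.0339, edgeR). With ABX, the levels ran from 4.89 to 6.85 CPM on CD and from 3.88 to 6.15 CPM on TDD, and the log2 fold change of -0.29 did not pass (q = 0.467, edgeR).

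When each mouse was dropped in turn, BAFF in SPF mice still passed 13 of 20 times. Dropping CD mouse 3, 4 or 5, or TDD mouse 2, 3, 4 or 5, ended the result, with q from 0.0547 to 0.0875 (edgeR) and log2 fold changes between -0.51 and -0.59.

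Most of the BAFF signal lay outside its coding transcripts. The coding transcripts Tnfsf13b-201 and Tnfsf13b-203 held 13.4% to 32.9% of its TPM in CD mice and 12.9% to 31.7% in TDD mice. The larger shares were those of Tnfsf13b-205, annotated as a target of nonsense-mediated decay (40.5% in CD and 35.7% in TDD), and of the retained-intron transcript Tnfsf13b-206 (31.3% and 35.5%). Each transcript is an estimate that splits reads shared with the others.

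APRIL differed little. Tnfsf13 (ENSMUSG00000089669.7) measured 13.1, 7.58, 15.3, 9.22 and 9.89 CPM in CD mice and 10.2, 13.9, 11.9, 16.2 and 13 CPM in TDD mice, and its log2 fold change was 0.24 (edgeR q = 0.3363). Its ranges overlapped in all groups, with 8.68 to 12.7 CPM on CD+ABX and 11.3 to 13.4 CPM on TDD+ABX (log2 fold change 0.20, q = 0.5951, edgeR). Its reads overlap those of Tnfsfm13, an annotated read-through locus on chromosome 11 that spans Tnfsf12 and Tnfsf13, and the split between both is uncertain. The APRIL level was 2.7 to 6.0 times that of the read-through locus in TPM over all mice.

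**Figure D2:**
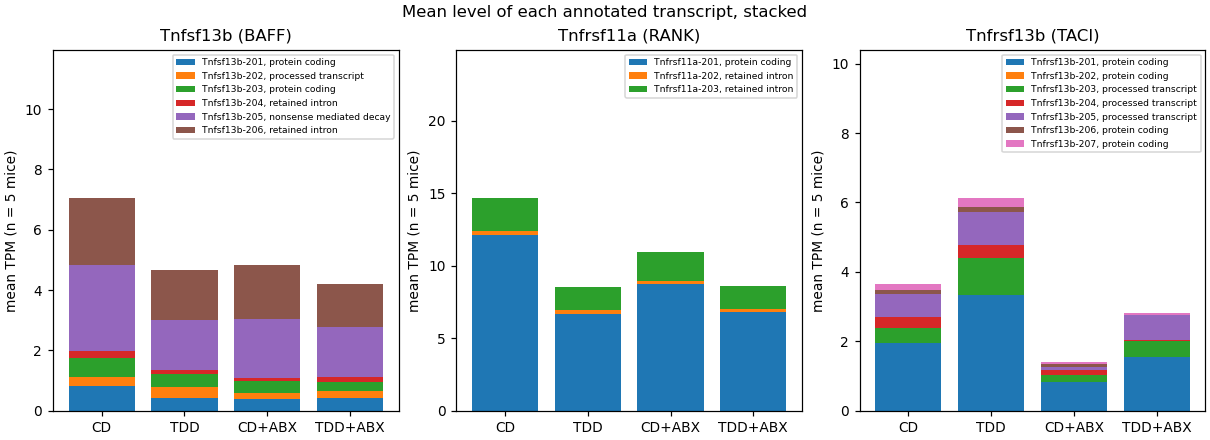
Stacked bars give the mean TPM (vertical axis, linear) of each annotated transcript of BAFF, RANK and TACI in the 4 groups (horizontal axis, 5 mice each), with colours for transcripts and their annotated type. In BAFF the stack is mostly a nonsense-mediated decay and a retained-intron transcript, whereas the coding transcript Tnfrsf11a-201 makes up most of RANK in each group.

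The receptors of BAFF and APRIL on B cells and plasma cells did not pass for the diet. Tnfrsf13b (TACI, which binds both ligands) measured 2.78, 5.88, 6.58, 2.98 and 3.07 CPM in CD mice and 2.89, 8.68, 7.14, 10.6 and 8.99 CPM in TDD mice. In 4 of 5 TDD mice it lay above all CD mice, while TDD mouse 1 lay among the lowest CD mice. The log2 fold change was 0.84 (SE 0.34, q = 0.102, edgeR), and without TDD mouse 1 it was 1.05 (q = 0.0254). With ABX it was 0.93 and did not pass (q = 0.199, edgeR).

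Tnfrsf13c (the BAFF receptor, which binds BAFF and is carried by mature B cells) spanned a wide range within groups. It measured 0.303, 4.09, 6.08, 0.161 and 0.4 CPM in CD mice and 0.477, 7.79, 4.93, 10.8 and 8.83 CPM in TDD mice. With ABX it measured 0.397, 0.288, 0.327, 0.37 and 0.434 CPM on CD and 0.785, 1.38, 0.372, 0.259 and 6.41 CPM on TDD. The log2 fold change for the diet was 1.56 (SE 0.91, unadjusted p = 0.101, q = 0.274, edgeR) in SPF mice. In ABX-treated mice it was 2.32 (SE 1.02, unadjusted p = 0.0346, q = 0.286, edgeR), and neither passed. Without TDD+ABX mouse 5 the second was 0.94.

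Tnfrsf17 (BCMA, the receptor of long-lived plasma cells) measured 0.771, 1.09, 0.578, 0.78 and 0.821 CPM in CD mice and 0.677, 1.65, 1.18, 1.27 and 0.934 CPM in TDD mice. The ranges overlapped, and the log2 fold change of 0.50 did not pass (q = 0.204, edgeR).

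The RANK ligand and CD30 ligand were low and did not pass for the diet either. Tnfsf11 (RANK ligand) measured 0.165, 0.581, 0.798, 0.161 and 0.337 CPM in CD mice, which is 6 to 40 counts a mouse, and 0.276, 1.15, 0.994, 1.32 and 1.5 CPM in TDD mice. Its log2 fold change in SPF mice was 1.34 (q = 0.105, edgeR), and 1.58 (q = 0.0459) without TDD mouse 1. Tnfsf8 (CD30 ligand, a signal between T and B cells) measured 0.661, 0.884, 1.04, 0.482 and 0.652 CPM in CD mice and 0.527, 1.4, 1.16, 1.9 and 1.68 CPM in TDD mice, and its log2 fold change was 0.84 (edgeR q = 0.0606). It passed without CD mouse 3 (0.99, q = 0.047), without TDD mouse 1 (1.04, q = 0.00959) or without TDD+ABX mouse 4 (0.83, q = 0.0491), and with DESeq2 on all mice (0.83, q = 0.0452).

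Osteoprotegerin (Tnfrsf11b) did not pass in any comparison, with means of 3.9 ± 1.62, 4.27 ± 0.756, 4.55 ± 1.27 and 3.52 ± 1.25 CPM in CD, TDD, CD+ABX and TDD+ABX mice (SD, n = 5). The ratio of RANK ligand to osteoprotegerin in TPM had a median of 0.118 (0.051 to 0.283) in CD mice and 0.322 (0.0814 to 0.569) in TDD mice. It was 0.0544 (0.0385 to 0.088) in CD+ABX mice and 0.108 (0.0317 to 0.267) in TDD+ABX mice, and these ratios overlapped between the diets. Over the 20 mice, RANK ligand had r = 0.95 with the B cell markers and osteoprotegerin 0.24. The part that the cell make-up of each tissue piece played in this ratio was not tested.

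Antibiotics were compared within each diet, which asks how the antibiotic treatment alters these genes. The study's methods add sucrose to the antibiotic water and name none for SPF mice, and its part was not tested. Both antibiotic comparisons share mice with the diet comparisons, so the values stand side by side. On CD, 4 of 9 members fell, namely TACI, BAFF, BCMA and RANK, and TACI was called. On TDD, 3 of 9 fell, namely TACI, BCMA and CD30 ligand, and TACI and CD30 ligand were called. Of all genes tested, 7.43% passed with lower levels on CD and 8.3% on TDD, and 2.3% and 1.67% were called. The median log2 fold change of the members was -0.6 on CD and -0.97 on TDD, beside 0 and -0.03 over all genes. The interaction of diet and antibiotics called 0 members and 0.0245% of all genes (edgeR). Of the members 1, RANK, had an unadjusted p under 0.05, as did 1452 of the 16306 genes tested. DESeq2 and limma called 0 members for it as well.

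**Figure D3:**
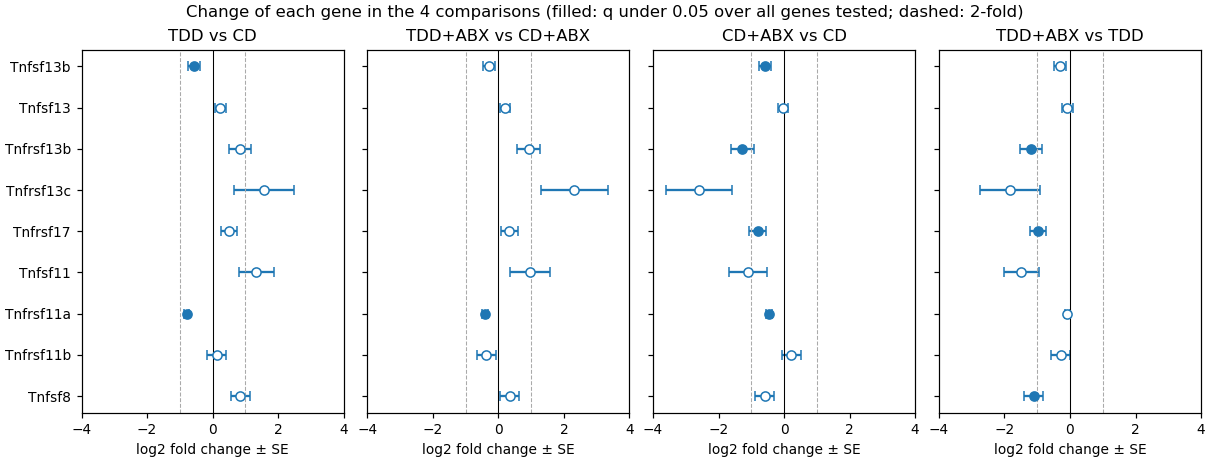
Points give the log2 fold change of each member (horizontal axis, whiskers 1 SE, 5 mice a group) in the 4 comparisons, filled where q was under 0.05, with dashed lines at 2-fold. RANK is filled in 3 of the comparisons and has the shortest whiskers, while the BAFF receptor has the longest and is filled in none.

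Tnfrsf13b (ENSMUSG00000010142.12, chromosome 11, 61126755 to 61149372, plus strand) encodes TACI, which supports IgA production. It measured 1.41, 2.11, 1.84, 1.63 and 1.81 CPM in CD+ABX mice, all below the lowest CD mouse, a separation that 9.74% of all genes tested showed. The mean of 4.26 ± 1.82 CPM fell to 1.76 ± 0.259 CPM (SD, n = 5), with -1.28 as the log2 fold change (SE 0.35, edgeR q = 0.0211). Without CD mouse 3 it was -1.06 (q = 0.0668).

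On TDD, TACI measured 2.64, 3.56, 2.81, 1.75 and 6.1 CPM with ABX, beside 2.89 to 10.6 CPM without. The log2 fold change was -1.18 (SE 0.34, q = 0.0249, edgeR), and the ranges overlapped. The result passed in 14 of 20 fits that each left out 1 mouse. It was lost without TDD mouse 2 or 4 or TDD+ABX mouse 1, 2, 3 or 4, where q ran from 0.0503 to 0.0707.

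BCMA measured 0.331, 0.288, 0.594, 0.467 and 0.622 CPM in CD+ABX mice and 0.434, 0.74, 0.661, 0.477 and 0.598 CPM in TDD+ABX mice. Its log2 fold change was -0.80 on CD (SE 0.26) and -0.97 on TDD (SE 0.25, q = 0.0166, edgeR). On CD it lay at the threshold (q = 0.04996, edgeR) and passed in only 4 of 20 fits that left out 1 mouse, where the highest q was 0.121. On TDD it was lost without TDD mouse 2 (q = 0.0512) or TDD+ABX mouse 1 (q = 0.0553).

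CD30 ligand measured 0.62, 0.72, 0.558, 0.338 and 0.885 CPM in TDD+ABX mice, where 4 of 5 TDD mice lay above all of these. Its log2 fold change was -1.10 (SE 0.29, q = 0.0182, edgeR), and without TDD mouse 4 it was -0.94 (q = 0.0511). With these groups fitted alone it was -1.08 (q = 0.0523). On CD it was -0.60 and did not pass (q = 0.215, edgeR).

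BAFF measured 4.89, 5.35, 5.55, 6.85 and 6.65 CPM in CD+ABX mice, of which 3 lay below every CD mouse. The log2 fold change was -0.58 (SE 0.18, q = 0.0343, edgeR). It held in 14 of 20 fits and was lost without CD mouse 3, 4 or 5 or CD+ABX mouse 1, 2 or 3, with q from 0.0627 to 0.0899. On TDD the log2 fold change of -0.30 did not pass (q = 0.256, edgeR).

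RANK fell on CD with ABX, where all 5 mice lay below all CD mice (log2 fold change -0.46, SE 0.08, q = 0.00181, edgeR). On TDD it was -0.08 (q = 0.541), with ranges of 25.1 to 34.1 CPM without ABX and 25.5 to 28.1 CPM with it. Every TDD, TDD+ABX and CD+ABX mouse lay below every CD mouse, and 1.23% of all genes tested separated CD mice from the rest.

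The BAFF receptor and RANK ligand did not pass with ABX in the edgeR test. Their log2 fold changes were -2.60 (q = 0.101) and -1.10 (q = 0.252) on CD and -1.84 (q = 0.181) and -1.48 (q = 0.069) on TDD (edgeR). On TDD, both passed without TDD+ABX mouse 5, at -3.2 (q = 0.0262) and -2.27 (q = 0.00657), and RANK ligand also without TDD mouse 1 (-1.72, q = 0.0314). With all mice, the BAFF receptor on CD was called by DESeq2 (-2.58, q = 0.0427), and RANK ligand on TDD passed with limma (-1.81, q = 0.0319).

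Several members moved with the B cell markers of the same mouse. In the 13 mice below the widest step in those markers the BAFF receptor lay between 0.161 and 1.38 CPM, and in the 7 mice above it between 4.09 and 10.8 CPM. TACI lay at 1.41 to 3.56 and at 5.88 to 10.6 CPM, RANK ligand at 0.0995 to 0.38 and at 0.581 to 1.5 CPM, and CD30 ligand at 0.338 to 0.72 and at 0.884 to 1.9 CPM. None of these 4 genes overlapped between both sets of mice, while BCMA (0.288 to 0.821 and 0.578 to 1.65 CPM), RANK (25.9 to 50.4 and 25.1 to 51.5 CPM) and BAFF (3.88 to 10.6 and 4.76 to 10.1 CPM) did. Of all genes tested, 1.33% did not overlap between these sets. The summed markers of follicular dendritic and lymphoid stromal cells did not overlap between them either, at 80 to 111 and at 146 to 213 CPM. Which of these cell types the 4 genes followed was not tested. The sets were made from the data, so no test was run.

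**Figure D4:**
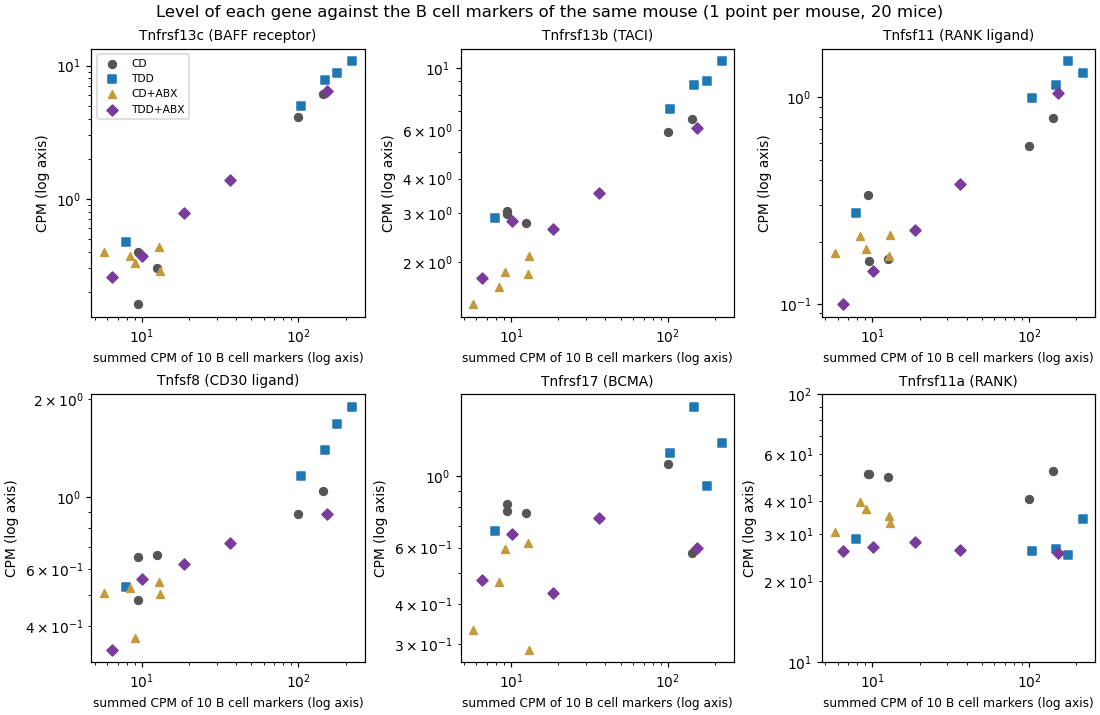
Each panel plots the CPM of a member (vertical axis, log) against the summed CPM of 10 B cell markers in the same mouse (horizontal axis, log), with 1 point per mouse and symbols for the 4 groups. The BAFF receptor, TACI, RANK ligand and CD30 ligand are higher in each of the 7 mice with at least 99.7 CPM of markers than in the other 13, and RANK is not.

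A fit that added the mean log2 level of these markers in each mouse as a covariate kept the RANK results. RANK was -0.76 (q = 9.68e-05) for the diet in SPF mice, -0.39 (q = 0.0396) for the diet in ABX-treated mice and -0.47 (q = 0.00278) for antibiotics on CD (edgeR, log2 fold changes). TACI was -0.69 (q = 0.00088) with antibiotics on CD and -0.52 (q = 0.00762) on TDD, so it still passed but no longer changed by 2-fold. The BAFF receptor was 0.41 and 0.05 for the diet and 0.09 and -0.28 for antibiotics, and did not pass. RANK ligand was 0.45 and -0.1 for the diet and -0.08 and -0.63 for antibiotics, and did not pass either. BAFF passed with antibiotics on CD (-0.67, q = 0.0169) and did not for the diet in SPF mice (-0.47, q = 0.0955). BCMA (-0.79, q = 0.0766) and CD30 ligand (-0.53, q = 0.0765) no longer passed with antibiotics on TDD. TACI and the BAFF receptor are themselves B cell genes and were not independent of the covariate. Over the 20 mice, its r was 0.94 with TACI, 0.99 with the BAFF receptor, 0.95 with RANK ligand and 0.91 with CD30 ligand. With RANK it was -0.23, so this fit could change the RANK results little. The covariate also differed between groups, with 0 of 5 CD+ABX and 4 of 5 TDD mice above the widest step. For genes that follow it, the fit cannot tell B cell content from treatment.

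**Figure D5:**
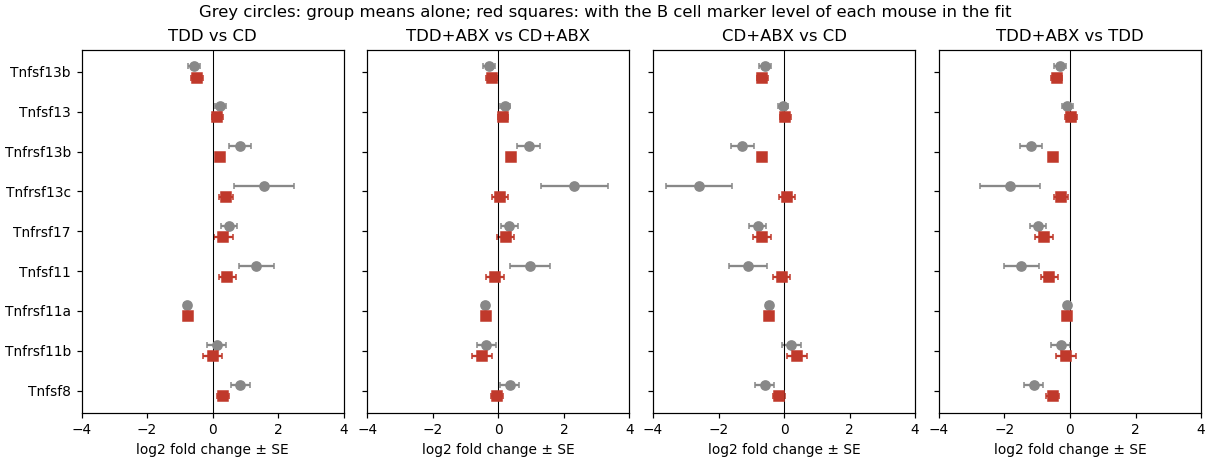
Grey circles give the log2 fold change (horizontal axis, whiskers 1 SE) of each member in the fit of group means, and red squares that in the fit with the B cell marker level of each mouse. The BAFF receptor moves from -2.60 to 0.09 with antibiotics on CD, and RANK stays at -0.46 and -0.47.

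Other cell types differed between groups as well. The summed plasma cell markers were 1880 to 3020 CPM in CD, 2060 to 3900 CPM in TDD, 1360 to 2120 CPM in CD+ABX and 1650 to 2060 CPM in TDD+ABX mice, and 4 of 9 rose for the diet in SPF mice. With antibiotics, 2 of 9 fell and 2 rose on CD, and 5 fell and 1 rose on TDD (edgeR). The markers of macrophages and dendritic cells, a source of BAFF, summed to 188 to 242, 99.1 to 195, 127 to 145 and 105 to 134 CPM in CD, TDD, CD+ABX and TDD+ABX mice, and 3 of 9 fell for the diet in SPF mice, 5 with antibiotics on CD and 4 on TDD. T cell markers summed to 38 to 102, 29.5 to 50.6, 19.6 to 25.4 and 17.9 to 33.8 CPM, and 7 of 8 fell with antibiotics on CD and 6 on TDD. For the diet 0 of them passed. In SPF mice 7 of 8 had lower estimates (median log2 fold change -0.47), and in ABX-treated mice 7 of 8 had higher ones (median 0.13). Fibroblast markers fell for the diet in 2 of 6 genes in either setting. Of 6 tested markers of group 3 innate lymphoid cells, 1 rose for the diet in each setting. All 6 had higher estimates in SPF mice (median log2 fold change 0.38), whereas 4 of 6 had lower estimates in ABX-treated mice (median -0.08). Markers of follicular dendritic and lymphoid stromal cells, a source of RANK ligand, summed to 94.2 to 165, 83 to 213, 80 to 105 and 82.2 to 156 CPM. For the diet in SPF mice 1 of these 7 markers fell, while 6 had higher estimates that did not pass (median log2 fold change of the list 0.41). With antibiotics on CD all 7 had lower estimates and 0 passed (median -0.55), and on TDD 2 of 7 fell. The part that these cells played in the members' results was not tested.

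The genes around the members were counted from 4 lists. The shares of all genes that passed, given above for the cell type markers, stand beside the counts of each list. With antibiotics, 2.3% of all genes were called on CD and 1.67% on TDD. Of the 10 tested partners among further ligands, receptors and proteoglycans that bind APRIL, 2 fell for the diet in SPF mice and 0 passed in ABX-treated mice. With antibiotics, 3 fell and 1 rose on CD, and 2 fell and 1 rose on TDD. The call was Cd40lg, the CD40 ligand of helper T cells, with antibiotics on CD (log2 fold change -1.30, q = 0.0378, edgeR). It measured 0.361 ± 0.14 CPM on CD and 0.145 ± 0.0772 CPM on CD+ABX (SD, n = 5). Both means are low and lie below the 0.5 CPM that any mouse had to reach for a gene to be tested. With the B cell marker covariate Cd40lg did not pass (-1.29, q = 0.0556, edgeR). Median log2 fold changes of this list were -0.09 and -0.05 for the diet and -0.15 and -0.21 for antibiotics.

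Of 18 genes of TRAF and NF-kappaB signalling, which relay the signal of these receptors, 2 rose for the diet in SPF mice and 0 passed in ABX-treated mice. With antibiotics 3 fell on CD and 6 on TDD, beside 7.43% and 8.3% of all genes tested. Traf1, an adaptor induced by NF-kappaB, was called on CD, at 5.89 ± 1.26 CPM without and 2.64 ± 0.469 CPM with ABX (SD, n = 5; log2 fold change -1.16, q = 0.00171, edgeR). With the B cell marker covariate it passed at less than 2-fold (-0.98, q = 0.00201). The 2 that rose on TDD were Birc3 (log2 fold change 0.75) and Birc2 (0.34), ubiquitin ligases of this pathway, which were chosen after their values were seen. Both fell with antibiotics on TDD, by 0.67 and 0.32 on the log2 scale.

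Of 12 genes of M cells and the follicle-associated epithelium, 0 passed for the diet in either setting (edgeR), with 1 in SPF and 2 in ABX-treated mice at an unadjusted p under 0.05. Of the 16306 genes tested, 4644 and 2415 reached that p. With antibiotics 4 fell on CD and 2 on TDD. Gp2, the M cell receptor for bacterial fimbriae, was called on CD, at 2.62 ± 1.57 CPM without and 0.7 ± 0.127 CPM with ABX (SD, n = 5; log2 fold change -1.90, q = 0.0279, edgeR), and with the B cell marker covariate it did not pass (-1.29, q = 0.0515). The medians of this list were 0.19 and 0.01 for the diet and -0.37 and -0.38 for antibiotics.

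Of 13 tested genes of IgA class switching and germinal centres, 0 passed for the diet in either setting (edgeR), with 1 in SPF and 4 in ABX-treated mice at an unadjusted p under 0.05. That p was reached by 4644 and 2415 of the 16306 genes tested. With antibiotics 8 fell and 1 rose on CD, and 3 fell and 1 rose on TDD. Among those called on CD were Gcsam (log2 fold change -3.21, q = 0.006) and Mef2b (-2.11, q = 0.045) of germinal centre B cells, Pdcd1 (-2.60, q = 0.00215), the checkpoint receptor of follicular T cells, and Il21r (-1.75, q = 0.0169), the receptor of the T cell cytokine IL-21 (edgeR). Il21r was called on TDD as well (-1.34, q = 0.0475, edgeR). With the B cell marker covariate, Mef2b on CD (-1.09, q = 0.214) and Il21r on TDD (-0.71, q = 0.114) did not pass, while Gcsam (-1.85, q = 0.0134), Pdcd1 (-2.56, q = 0.00356) and Il21r (-1.22, q = 0.0082) on CD were still called. The medians of the list were -0.91 on CD and -0.57 on TDD.

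The genes most like the members over the 20 mice were found by Pearson's r of log2(CPM + 0.5) across all genes tested, which shares the group means and libraries of both genes and is a description. For TACI they were Hvcn1 (r = 0.979), Fcrl1 (0.977), H2-Oa (0.976), Btla (0.969) and Cd79b (0.969). For CD30 ligand they were Map3k19 (0.963), Btk (0.955), Gpr183 (0.952), Ripor2 (0.95) and Pou2f2 (0.949). The other members were looked up after their values were seen. BCMA was most like the plasma cell genes Igha (0.914) and Mzb1 (0.905), osteoprotegerin most like Nexn (0.94), RANK most like Adck5 (0.947) and BAFF most like Trafd1 (0.928).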

How the data were processed

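Poly-A RNA of 20 mice was sequenced, and the authors assigned reads to mouse transcripts (GRCm38) with kallisto 0.44.0, per the submitters' processing notes and methods. The authors deposited estimated counts per gene as whole numbers, without normalization, and transcript TPM, with estimated counts per transcript for each mouse. kallisto splits reads shared by transcripts, and the members' gene counts differed from the sums of their transcripts by at most 0.475 counts. Groups came from the labels. All mice were used, whereas the study's own displays leave out some mice without naming them.

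A gene entered the test when any mouse reached 0.5 CPM, and edgeR 4.0.16 (quasi-likelihood, TMM scaling, R 4.3.3) was run with 4 group means in 1 fit and Benjamini-Hochberg adjustment over 16306 genes. The scripts were tested on simulated data. Alternatives included DESeq2 1.42.0 and limma 3.58.1. TPM per gene is the sum over GENCODE M21 transcripts. The members, lists, markers and motifs were chosen with earlier results of these data known, so no list was tested. Named list genes were those called in any comparison, up to 6 a list, of which 1 is not reported here, and likeness was to be given for called members. No 2 libraries were duplicates by a chi-square comparison of counts. Replicate numbers did not pair the mice. Counting error is covered by the fit, and low genes are the least precise.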

Additional observations from a re-analysis of the deposited data

Results flagged for a closer look

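Of 36 combinations of a member and a group, 3 had a mouse whose distance from the nearest of the others was large for the range of the group (Dixon's test, which by chance marks about 1 in 20 groups). The BAFF receptor in TDD+ABX mouse 5 was 6.41 CPM, with the next mouse at 1.38 CPM, and its B cell markers summed to 153 CPM where the other 4 mice had at most 36.4 CPM. RANK in CD mouse 2 was 40.6 CPM, with the next mouse at 49 CPM. CD30 ligand in CD+ABX mouse 3 was 0.368 CPM, with the next mouse at 0.503 CPM.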

How the results depend on the processing

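Numbers of genes called in SPF mice for the diet (300), in ABX-treated mice (54), with antibiotics on CD (375) and on TDD (272) and in the interaction (4) moved by over 1.5 times as follows. Without the fold change limit they were 2354, 287, 2083 and 2525, and the members passing were 2, 1 and 4 in the first 3. The interaction called 0 genes with RLE scaling, limma-voom or the replicate block, 1 without the filter or with 0.5 CPM in at least 5 mice, 51 with DESeq2 and 7 with the B cell marker covariate. The diet in ABX-treated mice called 98 with DESeq2 and 30 with the replicate block, and antibiotics on TDD 174 with the covariate. Members called with antibiotics on CD (1) were 2 with DESeq2 and 0 with limma-voom or the covariate. On TDD (2) they were 0 with the groups fitted alone or the covariate.

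The number of a mouse did not pair the groups (30 pairs, r -0.42 to 0.29, median -0.03), and with the replicate block BCMA alone changed sides among the members (antibiotics on CD, -0.79, q = 0.0572, edgeR). BCMA on CD was also lost with RLE scaling, no filter, the stricter filter, limma-voom, the groups alone and the covariate. BAFF was lost with the groups alone for the diet (q = 0.0876) and antibiotics on CD (q = 0.0507), TACI on CD with limma-voom (q = 0.0644) and on TDD with the groups alone (q = 0.0551), as was CD30 ligand (q = 0.0523). Results gained were those of CD30 ligand for the diet in SPF mice and the BAFF receptor on CD with DESeq2, and RANK ligand on TDD with limma-voom. RANK kept its 3 results under every alternative other than leaving out mice.

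Leaving out 1 mouse gave 221 to 371 genes called for the diet in SPF mice, 26 to 67 in ABX-treated mice, 284 to 405 and 173 to 427 with antibiotics on CD and TDD, and 0 to 14 in the interaction. Members called were 0 to 3, 0, 0 to 1, 0 to 4 and 0. Sign changes were those of values that had not passed. Over the fits that left out 1 mouse, osteoprotegerin for the diet in SPF mice ran from -0.05 to 0.37, APRIL from -0.14 to 0.11 and from -0.16 to 0.01 with antibiotics on CD and TDD, and the interactions of APRIL from -0.19 to 0.09, of TACI from -0.22 to 0.27 and of the BAFF receptor from -0.61 to 1.05. The interaction of TACI was -0.01 and that of the BAFF receptor -1.04 with limma-voom and -0.36 with the covariate, which also turned RANK ligand (-0.1) and CD30 ligand (-0.04) for the diet with ABX, APRIL (0.04 and 0.03) and the BAFF receptor on CD (0.09). Of 36 member levels in TPM, 10 moved by more than 1 SD when counts were divided by mean transcript length, namely RANK and TACI in all 4 groups and BAFF and the BAFF receptor in CD+ABX.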
